A study of Mus musculus with 12 samples.

Results

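A set of 9 genes that carry a muscle precursor cell from quiescence to fusion were followed through AREG treatment of regenerating mouse muscle: Pax7, Pax3, Myf5, Myod1, Myog, Myf6, Msc, Mymk and Cdh15. They were chosen by name, as the genes from the satellite cell factor Pax7 to the fusion protein myomaker. Earlier results of these data were known when they were chosen, so their counts against all genes are a description. A gene was kept if a transcript cluster of the array, a set of probes summarised into 1 value, carried its symbol alone. All 9 listed genes met this rule with 1 cluster each, out of 19752 genes measured.

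RNA of the whole tibialis anterior (TA), a muscle of the shin, from C57BL/6 mice aged 8 weeks was hybridised to 12 Affymetrix Mouse Gene 1.0 ST arrays. On day 0 every mouse had cardiotoxin injected into the muscle, a snake venom protein that destroys muscle fibres and sets off their regeneration. All mice were also given diphtheria toxin on alternate days, which kills cells that carry its receptor; in Foxp3-DTR+ mice that receptor is placed under Foxp3, the defining transcription factor of regulatory T (Treg) cells, whereas Foxp3-DTR- mice lack it. The study asked how amphiregulin, a ligand of the epidermal growth factor receptor, alters gene expression in injured muscle with and without Treg cells. Amphiregulin (AREG) or phosphate-buffered saline (PBS), its vehicle, was injected into the muscle on day 0 and into the peritoneum afterwards. The 4 groups of 3 arrays were AREG-treated Foxp3-DTR- muscle at day 4, PBS-treated Foxp3-DTR- muscle at day 4, AREG-treated Foxp3-DTR+ muscle at day 8 and PBS-treated Foxp3-DTR+ muscle at day 8. Day and genotype changed together, so their effects cannot be told apart. Nothing in the labels assigns the arrays to separate animals, so the p-values measure the spread between these samples, which may be technical.

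Adult muscle regenerates from satellite cells, precursor cells under the sheath of the fibre that are held in reserve by the paired box factor Pax7. Once activated they express the basic helix-loop-helix (bHLH) factors Myf5 and MyoD (Myod1), divide as myoblasts, switch on myogenin (Myog) to leave the cell cycle, and fuse into new fibres with the help of the membrane protein myomaker (Mymk). The bHLH factors bind short DNA motifs called E-boxes in the control regions of muscle genes, together with factors such as the Mef2 proteins.

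The promoters of Myog and Cdh15 are shown because both genes differed between groups and carry such motifs next to their start. RefSeq promoters of the GRCm38.p6 assembly were given for 4 of the 9 genes (Pax7, Myf5, Myog and Cdh15), and the 250 bases before the start were searched. Capitals mark E-boxes (CANNTG, which reads as an E-box on both strands). The Myog promoter lies at chr1:134289754-134290003 and the Cdh15 promoter at chr8:122848124-122848373, both on the + strand.
Myog: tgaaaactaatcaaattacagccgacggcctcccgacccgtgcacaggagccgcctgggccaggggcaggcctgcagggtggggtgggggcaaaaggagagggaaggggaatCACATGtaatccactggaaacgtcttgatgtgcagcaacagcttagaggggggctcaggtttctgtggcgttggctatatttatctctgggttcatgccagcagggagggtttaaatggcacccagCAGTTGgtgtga
Cdh15: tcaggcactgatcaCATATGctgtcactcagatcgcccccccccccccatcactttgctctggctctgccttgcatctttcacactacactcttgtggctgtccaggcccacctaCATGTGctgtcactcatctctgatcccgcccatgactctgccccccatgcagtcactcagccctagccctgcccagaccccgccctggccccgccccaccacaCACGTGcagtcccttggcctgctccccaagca
The Myog stretch held 2 E-boxes and the Cdh15 stretch held 3 E-boxes. Among 32851 RefSeq promoters of this length, 66.2% held at least 1 E-box, 31.8% at least 2 and 12.2% at least 3. No E-box was found in the 250 bases before Pax7 or Myf5.

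Array values were RMA intensities, a background-corrected brightness scaled to be alike between arrays, and are given as log2. The arrays still differed in spread. Median intensities of the 12 arrays ran between 133.7 and 143.2. The log2 interquartile range was 2.19 in AREG day 4 replicate 1 and 2.37 in PBS day 4 replicate 1, against 2.50 to 2.72 in the other arrays. All 20 measured genes of a list for mature fast fibres lay at or above the level of the median gene. Foxp3 averaged 6.66 ± 0.09 in AREG-treated and 6.55 ± 0.09 in PBS-treated Foxp3-DTR+ muscle at day 8, against 6.61 ± 0.11 and 6.57 ± 0.09 in the AREG-treated and PBS-treated Foxp3-DTR- muscle at day 4 (log2 intensity, SD, n = 3). Its arrays overlapped between the genotypes (PBS day 8 minus PBS day 4 -0.02 ± 0.11, SE, adjusted p = 0.955). The highest Foxp3 value on any array was 6.75, below the level of the median gene. Presence or loss of Treg cells could therefore not be read from this dim gene in whole muscle. The mean level of the median gene was 7.15; Pax7, Myod1, Myog, Myf6, Mymk and Cdh15 lay above it, and Pax3, Myf5 and Msc below it.

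In Foxp3-DTR- muscle at day 4, the fusion gene Mymk and the differentiation gene Myog were lower with AREG than with PBS. Mymk was 2.48-fold and Myog 2.14-fold lower, the 2 of the 9 genes that passed the test (limma, Benjamini-Hochberg adjusted p under 0.05 over all genes). Across all genes 2.9% passed, 2.11% as lower and 0.79% as higher. The difference lay below 0 in 8 of the 9 genes, against 40.9% of all genes, and 6 of the 9 had an unadjusted p under 0.05, against 17% of all genes. The median difference over the 9 genes was -0.42, against 0.04 over all genes.

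Mymk encodes myomaker, the membrane protein that myoblasts need to fuse. Its log2 intensity was 9.96, 10.24 and 9.59 on the AREG arrays of day 4, against 11.18, 11.54 and 11.00 on the PBS arrays. The highest AREG array lay well below the lowest PBS array. The log2 difference was -1.31 ± 0.23 (SE, adjusted p = 0.0198, n = 3 each).

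Myog encodes myogenin, the factor that commits a myoblast to differentiate. It measured 7.58, 7.81 and 7.44 with AREG at day 4, against 8.58, 9.19 and 8.36 with PBS. Here too the groups did not overlap, and the spread was wider among the PBS arrays. The difference was -1.10 ± 0.21 (SE, adjusted p = 0.0198). Without AREG day 4 replicate 1, AREG day 4 replicate 3 or PBS day 4 replicate 2, neither gene passed: the adjusted p of Myog became 0.068, 0.0879 and 0.145, and that of Mymk 0.0654, 0.0835 and 0.145. The differences stayed between -1.27 and -0.86 for Myog, and between -1.47 and -1.14 for Mymk, whichever of the 12 arrays was left out. The number of genes called among all fell to 15, 9 and 9 without these 3 arrays, against 573 with all of them.

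Cdh15, M-cadherin, is an adhesion protein between satellite cells, myoblasts and fibres. At day 4 it measured 8.64, 8.66 and 8.55 with AREG, against 9.13, 9.50 and 8.87 with PBS. The groups did not overlap, and the AREG arrays lay close together. The difference of -0.55 ± 0.15 (SE) missed the threshold at an adjusted p of 0.0625. With a block for the replicate number, which pairs AREG and PBS arrays of 1 number, it passed at an adjusted p of 0.0385, and 914 genes were called in place of 573. It passed when genes below the median level were left out (adjusted p = 0.0458), and without PBS day 4 replicate 3 (adjusted p = 0.0349), AREG day 8 replicate 1 (0.0358) or AREG day 8 replicate 3 (0.0308), the last of which also brought Myod1 past the threshold (0.0245), for 4 of the 9 genes called and 1336 of all genes.

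Myod1 and Myf5, the bHLH factors of activated satellite cells and myoblasts, were lower on every AREG array of day 4 but did not pass the test. Myod1 measured 8.81, 8.92 and 8.59 with AREG, against 9.30, 9.73 and 9.09 with PBS, a difference of -0.60 ± 0.22 (SE, adjusted p = 0.16). Myf5 measured 6.88, 6.88 and 6.74 with AREG, against 7.26, 7.54 and 6.97 with PBS, a difference of -0.42 ± 0.15 (SE, adjusted p = 0.133). Mymk, Myog, Cdh15, Myod1 and Myf5 were thus the 5 of 9 genes whose AREG arrays all lay below all PBS arrays, a pattern seen in 12% of all genes.

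Pax7, Pax3, Msc and Myf6 had overlapping groups at day 4, and none of them passed. Pax7, the satellite cell factor, measured 7.72, 7.90 and 7.92 with AREG at day 4, against 8.15, 8.33 and 7.85 with PBS; the groups overlapped through the lowest PBS array (difference -0.26 ± 0.12, SE, adjusted p = 0.294). Pax3, its paralogue, ranged from 6.22 to 6.44 with AREG, against 6.09 to 6.29 with PBS, and was the 1 gene with a difference above 0 (0.12 ± 0.14, SE, adjusted p = 0.769). Msc, musculin, a bHLH repressor found in myoblasts, ranged from 6.853 to 6.995 with AREG, against 6.978 to 7.415 with PBS, so the groups just overlapped (-0.30 ± 0.13, SE, adjusted p = 0.238). Myf6 (MRF4), the bHLH factor that mature fibres keep expressing, ranged from 10.70 to 10.82 with AREG and from 10.64 to 11.01 with PBS. Its difference of -0.06 ± 0.14 (SE, adjusted p = 0.909) changed sign under repeated quantile normalisation (0.018).

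**Figure D1:**
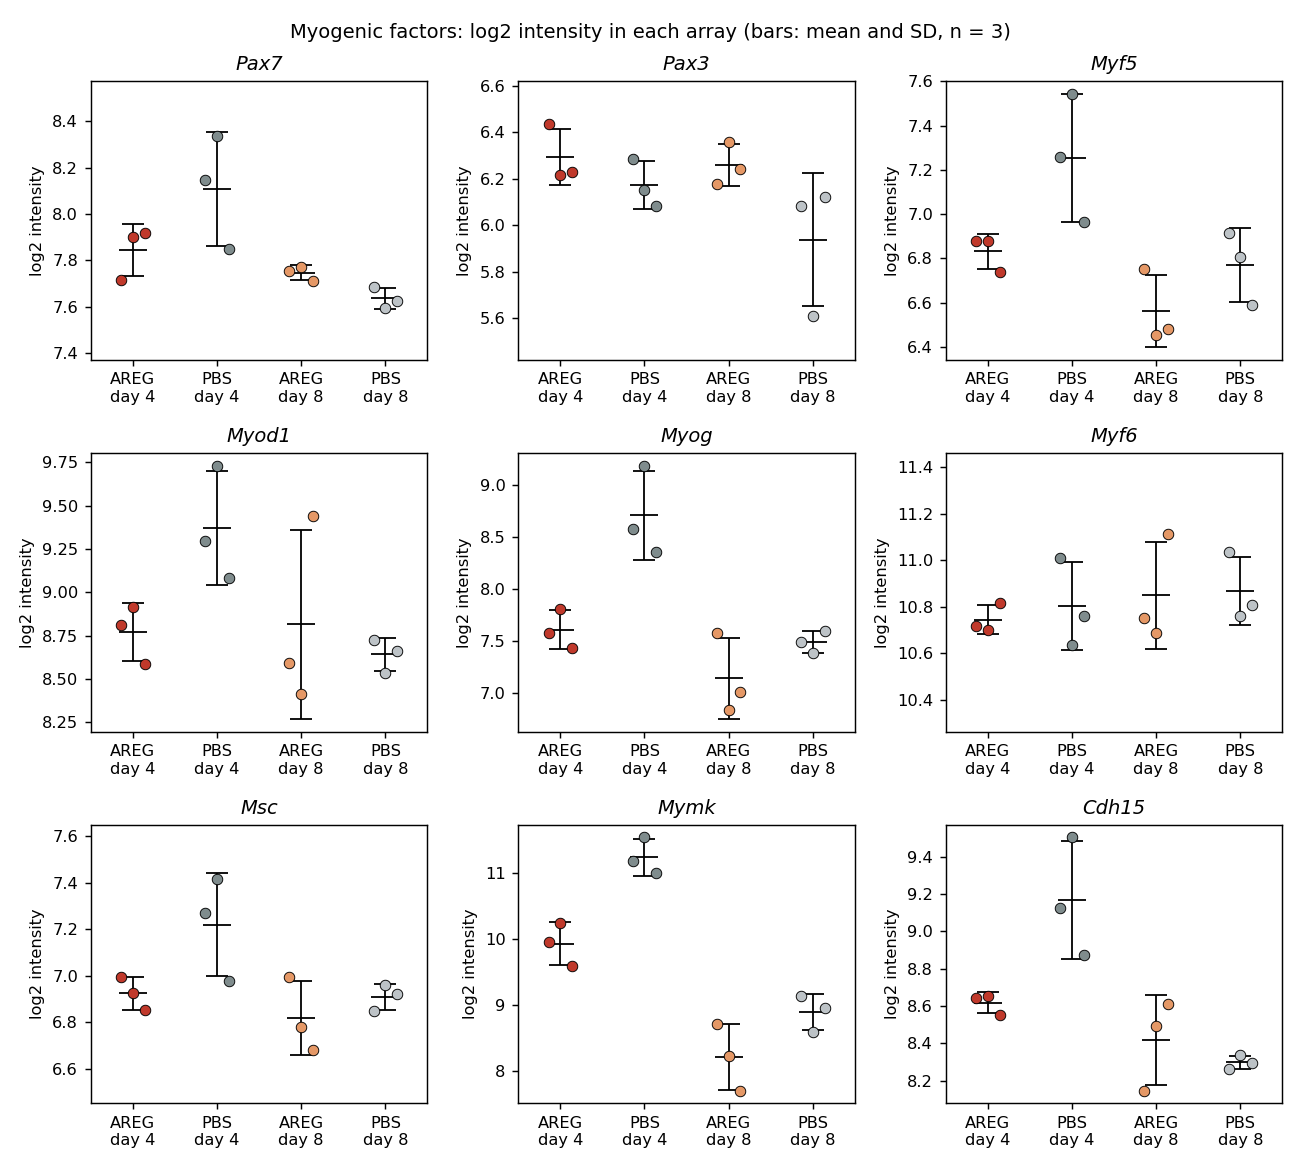
Log2 intensity (vertical axis) of each of the 9 genes in the 4 groups, with 1 point per array and bars for the group mean and SD (n = 3). PBS day 4 had the highest mean of the 4 groups in 7 of the 9 genes, and the Mymk means ran, from high to low, PBS day 4, AREG day 4, PBS day 8, AREG day 8.

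PBS day 4 replicate 2 was the highest of all 12 arrays for the same 7 genes that had their highest mean in that group (Pax7, Myf5, Myod1, Myog, Msc, Mymk and Cdh15). PBS day 4 replicate 3 was the lowest of its group for 8 of the 9 genes, Myf6 being the exception. Without replicate 2 the day 4 difference of Myog was -0.86 and that of Mymk -1.16.

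In Foxp3-DTR+ muscle at day 8 none of the 9 genes passed limma's test between AREG and PBS. Of all 19752 genes 1 passed, or 0.00506%. At an unadjusted p under 0.05, 2 of the 9 genes differed, against 7.62% of all genes. These were Mymk, lower with AREG, and Pax3, higher with AREG. Both passed when arrays were weighted by their quality (limma, adjusted p 0.035 and 0.0441), a setting that called 1192 genes. In that setting AREG day 8 replicate 2 weighed 7.43, against 0.583 and 0.321 for replicates 1 and 3. The weighted AREG mean therefore rested mostly on replicate 2. The median difference over the 9 genes was -0.02, against 0.01 over all genes, and 5 of the 9 lay below 0, against 48.8% of all genes.

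Mymk measured 8.71, 8.23 and 7.70 on the AREG arrays of day 8, against 9.13, 8.59 and 8.95 on the PBS arrays. The highest AREG array exceeded the lowest PBS array. The difference was -0.68 ± 0.23 (SE, 95% interval -1.17 to -0.18, adjusted p = 0.617). Pax3 measured 6.18, 6.36 and 6.24 with AREG, against 6.09, 5.61 and 6.12 with PBS. All AREG arrays lay above all PBS arrays, with 1 low PBS array (difference 0.32 ± 0.14, SE, adjusted p = 0.644). Pax3 was dim, with a mean level above that of only 29.7% of genes. Pax7 was the other gene whose groups did not overlap, with 7.76, 7.77 and 7.71 with AREG, against 7.69, 7.60 and 7.63 with PBS; the gap was narrow (0.11 ± 0.12, SE, adjusted p = 0.863). AREG arrays lay wholly above PBS arrays in 2 of the 9 genes, against 7.06% of all genes.

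Myog measured 7.59, 6.84 and 7.01 with AREG at day 8, against 7.49, 7.39 and 7.60 with PBS. The highest AREG array lay among the PBS arrays (difference -0.35 ± 0.21, SE, adjusted p = 0.737). Myod1 measured 8.60, 8.42 and 9.44 with AREG, against 8.72, 8.54 and 8.66 with PBS. A single high AREG array, replicate 3, set the sign of the Myod1 difference, which was 0.17 ± 0.22 (SE, adjusted p = 0.882) with it and -0.14 without it. Cdh15 ranged from 8.15 to 8.61 with AREG, against 8.27 to 8.34 with PBS (difference 0.12 ± 0.15, SE, adjusted p = 0.887). Myf5, Msc and Myf6 overlapped between the groups, with differences of -0.21, -0.09 and -0.02.

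The AREG effects of day 8 and day 4 were then compared with each other. The difference of the effects, day 8 minus day 4, lay above 0 for all 9 genes, whereas 52.8% of all genes lay below it. Its median over the 9 genes was 0.37, against -0.01 over all genes. Each value contains the PBS day 4 arrays, the group with the highest mean in 7 of the 9 genes. The 9 signs are therefore not independent. None of the 9 passed limma's test, nor did any of the 19752 genes (0%). At an unadjusted p under 0.05, 4 of the 9 differed, against 5.87% of all genes: Cdh15 (0.67 ± 0.21, SE, adjusted p = 0.631), Myod1 (0.77 ± 0.31, SE, adjusted p = 0.799), Myog (0.75 ± 0.29, SE, adjusted p = 0.795) and Pax7 (0.37 ± 0.18, SE, adjusted p = 0.849). For Mymk it was 0.63 ± 0.33 (SE, 95% interval -0.07 to 1.33, adjusted p = 0.898). The sign of the Myf6 value, 0.04, turned to -0.019 under repeated quantile normalisation.

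**Figure D2:**
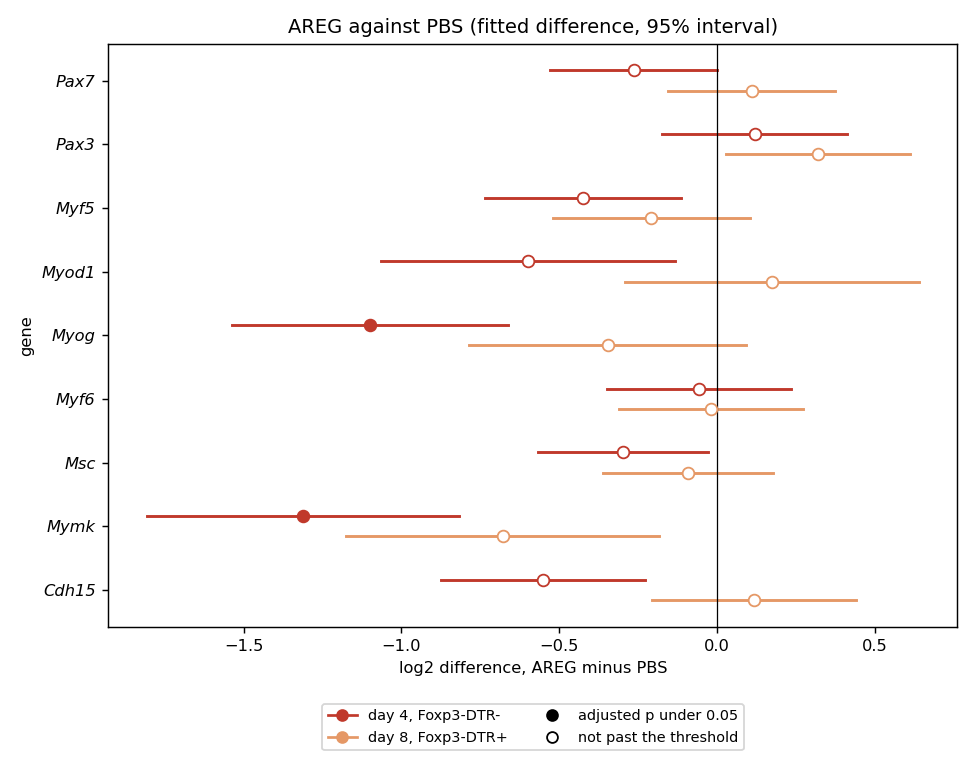
Difference in log2 intensity between AREG and PBS (horizontal axis) for each gene at day 4 and at day 8, with bars for the 95% interval and filled points for genes with an adjusted p under 0.05. Filled points mark Myog and Mymk at day 4 alone, and no gene at day 8.

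Mymk was lower in the Foxp3-DTR+ muscle of day 8 than in the Foxp3-DTR- muscle of day 4 with both treatments, and Myog and Cdh15 passed with PBS. Between the PBS groups 3 of the 9 genes passed as lower at day 8 and none as higher, against 2.34% of all genes (1.15% as lower and 1.19% as higher). Mymk was 5.10-fold, Myog 2.33-fold and Cdh15 1.83-fold lower. The difference lay below 0 in 8 of the 9 genes, against 58.7% of all genes, and 7 of the 9 had an unadjusted p under 0.05, against 13.1% of all genes. The median difference over the 9 genes was -0.49, against -0.04 over all genes, and 7 of the 9 had day 8 arrays wholly below the day 4 arrays, against 14.2% of all genes. This comparison shares the PBS day 4 arrays with the AREG comparison at day 4, so the values of the 2 are not independent.

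On the PBS arrays Mymk measured 9.13, 8.59 and 8.95 at day 8, against 11.18, 11.54 and 11.00 at day 4. Nearly 2 log2 units separated the closest arrays of the groups. The difference was -2.35 ± 0.23 (SE, adjusted p = 3.8e-05), which ranked 2 from the lowest of all 19752 genes. Myog measured 7.49, 7.39 and 7.60 at day 8, against 8.58, 9.19 and 8.36 at day 4 (difference -1.22 ± 0.21, SE, adjusted p = 0.00406). Cdh15 measured 8.27, 8.34 and 8.30 at day 8, against 9.13, 9.50 and 8.87 at day 4 (difference -0.87 ± 0.15, SE, adjusted p = 0.00521). In both genes the 3 arrays of day 8 lay close together and below every day 4 array. The calls of Mymk, Myog and Cdh15 held whichever array was left out.

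Pax7 measured 7.69, 7.60 and 7.63 at day 8, against 8.15, 8.33 and 7.85 at day 4 on the PBS arrays. The groups did not overlap, but the difference of -0.47 ± 0.12 (SE) missed the threshold at an adjusted p of 0.0641. Myod1 differed by -0.73 ± 0.22 (SE, adjusted p = 0.119), Myf5 by -0.49 ± 0.15 (SE, adjusted p = 0.12) and Msc by -0.31 ± 0.13 (SE, adjusted p = 0.293), each without overlap between the groups. Pax3 (-0.24 ± 0.14, SE) and Myf6 (0.07 ± 0.14, SE) overlapped. Without PBS day 4 replicate 3, Pax7 and Myf5 passed as well (adjusted p 0.0194 and 0.0393), and without AREG day 8 replicate 3, Pax7 and Myod1 did (0.0495 and 0.0101), for 5 genes called each time; the setting without AREG day 8 replicate 3 called 719 of all genes, against 463. Pax7 also passed with repeated quantile normalisation (0.0328) and without AREG day 4 replicate 1 (0.0454), and Myod1 from the 6 PBS arrays alone (0.0191).

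With AREG, 1 of the 9 genes passed between day 8 and day 4, against 0.719% of all genes (0.192% as lower and 0.527% as higher). Mymk measured 8.71, 8.23 and 7.70 at day 8, against 9.96, 10.24 and 9.59 at day 4, with a clear gap between the groups. Its difference of -1.72 ± 0.23 (SE, adjusted p = 0.00152, 3.29-fold lower) was the lowest of all 19752 genes. Myog differed by -0.47 ± 0.21 (SE, adjusted p = 0.448) with overlapping groups, Cdh15 by -0.20 ± 0.15 (SE, adjusted p = 0.682), Myf5 by -0.27 ± 0.15 (SE, adjusted p = 0.556) and Pax7 by -0.10 ± 0.12 (SE, adjusted p = 0.802). Mymk was the 1 gene of the 9 whose groups did not overlap, against 8.97% of all genes with the day 8 arrays lower. The difference lay below 0 in 7 of the 9 genes, against 65.2% of all genes, and 2 of the 9 had an unadjusted p under 0.05, against 10.3%. The median over the 9 genes was -0.11, against -0.06 over all genes. For each gene the AREG value minus the PBS value of this day contrast equals the difference of the AREG effects given above, which did not pass the test for any of them.

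**Figure D3:**
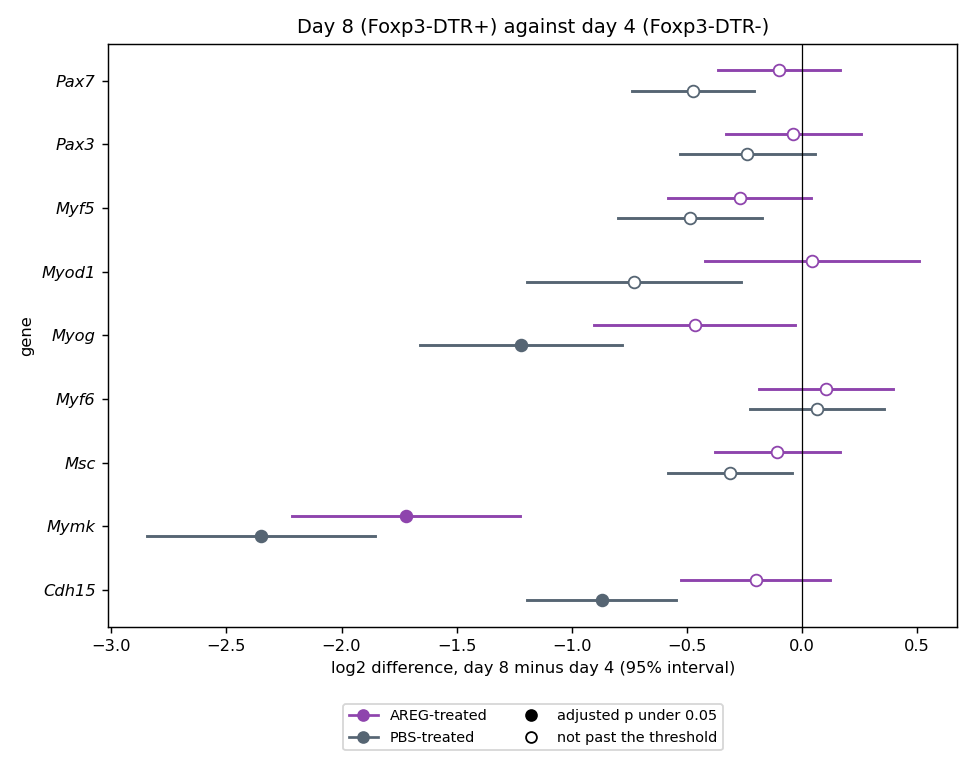
Difference in log2 intensity between day 8 (Foxp3-DTR+) and day 4 (Foxp3-DTR-) muscle (horizontal axis) for each gene, in AREG-treated and in PBS-treated mice, with bars for the 95% interval. Filled points (adjusted p under 0.05) mark Mymk with both treatments, and Myog and Cdh15 with PBS.

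Ordered by their means, the groups ran PBS day 4, AREG day 4, PBS day 8 and AREG day 8 for Mymk (11.24 ± 0.28, 9.93 ± 0.33, 8.89 ± 0.28 and 8.21 ± 0.50, log2 intensity, SD). Neighbours in this order did not overlap, except the last 2. Myog kept the same order (8.71 ± 0.43, 7.61 ± 0.19, 7.49 ± 0.10 and 7.15 ± 0.39), but there the first step alone separated neighbours. Myod1 was highest in PBS day 4 (9.37 ± 0.33), and its other means, 8.82 ± 0.55 in AREG day 8, 8.77 ± 0.17 in AREG day 4 and 8.64 ± 0.10 in PBS day 8, did not differ beyond their spread. Myf6 means covered the narrowest range of the 9 genes, 10.75 to 10.87.

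Across the 12 arrays several of the 9 genes moved together. The arrays share their groups, so each correlation (Pearson's r, given as a description) is set beside that of the deviations from the 4 group means. Myf5 and Myog correlated at 0.94 (0.78 for deviations), Myf5 and Msc at 0.92 (0.80), Myog and Msc at 0.92 (0.80), and Myog and Mymk at 0.92 (0.76). Mymk and Cdh15 correlated at 0.80 over the arrays but at -0.07 for deviations, so that pair was alike between groups and not within them. Myod1 and Cdh15 gave 0.83 (0.69), and Pax7 and Cdh15 0.89 (0.60). Myf6 correlated at -0.32 to 0.22 with the other genes.

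The genes whose 12 values most resembled those of Mymk were Tubb6 (r = 0.99, and 0.93 for deviations), Dclk1 (0.99 and 0.86) and Tubb2b (0.98 and 0.81). Tubb6 and Tubb2b are beta-tubulins and Dclk1 is a kinase that binds microtubules. They were picked for this likeness over the same arrays, so their group differences follow from the choice and are given as a description. With AREG at day 4 they differed from PBS by -1.11, -1.24 and -1.43 (log2). Tubb6 measured 9.79, 10.22 and 9.76 on these AREG arrays, against 11.09, 11.22 and 10.80 on the PBS arrays, without overlap. The closest genes to Myog were Chrnd, the delta subunit of the acetylcholine receptor (0.98, and 0.97 for deviations), Plscr3, a phospholipid scramblase (0.98 and 0.93), and Aif1l (0.97 and 0.80). Chrnd measured 8.01, 8.42 and 7.86 with AREG at day 4, against 8.81, 9.43 and 8.57 with PBS. Like Myog, it had its highest array in PBS day 4 replicate 2.

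**Figure D4:**
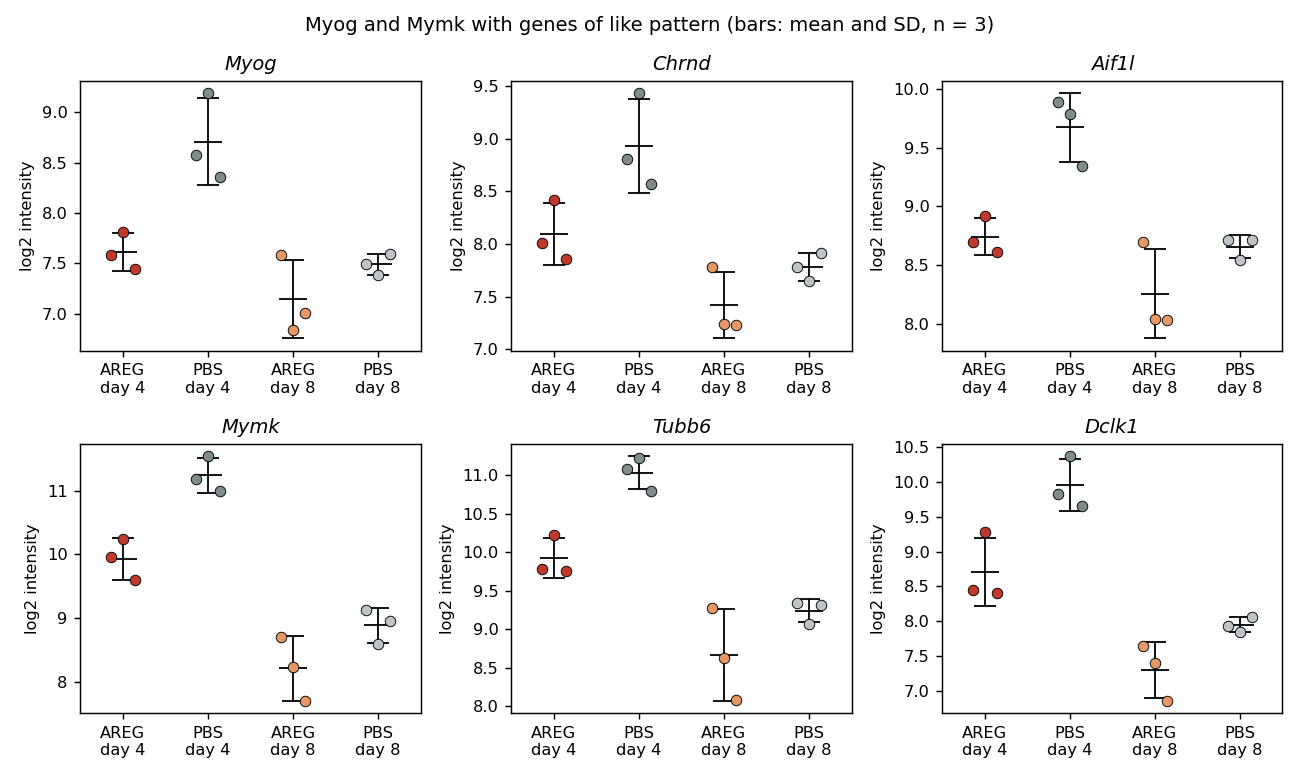
Log2 intensity (vertical axis) in the 4 groups of Myog with Chrnd and Aif1l (upper row) and of Mymk with Tubb6 and Dclk1 (lower row), with 1 point per array and bars for the group mean and SD (n = 3). Within each row PBS day 4 was highest and AREG day 8 lowest, an order that the choice of genes by likeness fixes.

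Plscr3 was also the gene closest to Msc (0.97) and to Myf5 (0.95). For Myod1 the closest was Dll1, a ligand of the Notch receptors (0.93, and 0.90 for deviations), followed by Jdp2 (0.88) and Bcam (0.86). Gal, which encodes the neuropeptide galanin, was among the 3 closest to both Pax7 (0.92) and Cdh15 (0.94). The closest gene to Myf6, Tcta, reached 0.79.

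Other genes of the pathway were taken from lists that exclude the 9. These lists too were chosen with earlier results of these data known, so their counts are a description. Of all genes 2.11% fell and 0.79% rose with AREG at day 4. Of 33 measured genes expressed by differentiating myocytes, 8 fell and none rose, and the list median was -0.31 against 0.04 over all genes. Among the 4 with the smallest p were Chrng, the gamma subunit of the embryonic acetylcholine receptor (-1.28 ± 0.22, SE, adjusted p = 0.0198), and Ckb, the brain form of creatine kinase (-0.94 ± 0.17, SE, adjusted p = 0.0198). The others were Cdkn1c, an inhibitor of the cell cycle (-0.70 ± 0.14, SE, adjusted p = 0.0218), and Peg3, an imprinted zinc finger gene (-1.14 ± 0.23, SE, adjusted p = 0.0236). Of 22 measured genes for fusion and adhesion, 3 fell and none rose (median -0.13): Ncam1 (-1.01 ± 0.18, SE, adjusted p = 0.0198), Cdh2 (-0.83 ± 0.17, SE, adjusted p = 0.0262) and Itga7 (-0.71 ± 0.15, SE, adjusted p = 0.0271), which encode adhesion proteins of the muscle cell surface. Mymx, the fusion partner of myomaker, differed by -0.35 ± 0.17 (SE, adjusted p = 0.317).

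Of 26 measured genes for satellite cells and Notch signalling, 3 fell and none rose (median -0.12): Itga7, Hgf, the growth factor that activates satellite cells (-0.60 ± 0.15, SE, adjusted p = 0.0431), and Notch2 (-0.63 ± 0.16, SE, adjusted p = 0.0449). Of 22 partners and inhibitors of the bHLH factors, Snai2, a repressor that binds E-boxes, fell (-0.62 ± 0.12, SE, adjusted p = 0.0236) and none rose (median -0.03). Of 18 measured cofactors of the myogenic programme, Dach2, a transcriptional cofactor, rose (0.86 ± 0.16, SE, adjusted p = 0.0198) and none fell (median 0.18). Each of these counts became 0 without AREG day 4 replicate 1, AREG day 4 replicate 3 or PBS day 4 replicate 2. Over all arrays left out in turn, differentiation counts ran from 0 to 12, and satellite cell and Notch counts from 0 to 7. Without PBS day 4 replicate 1 both of these counts were 1, and with a pseudocount of 32 they were 5 and 1. The cofactor count was 0 when genes below the median level were left out. With the replicate block 12 of the 33 differentiation genes fell and 1 rose, 6 of the 26 satellite cell and Notch genes fell, and of the 22 bHLH partners 1 fell and 1 rose. The single calls among the bHLH partners and the cofactors lie near the share over all genes. None of these genes passed at day 8, and neither did any of the 20 genes of mature fast fibres. Only 1 of all 19752 genes passed there (0.00506%). The differentiation list had 21 of 33 differences below 0 at day 8 (median -0.23), against 48.8% of all genes (median 0.01). The cofactors had 9 of 18 below 0 and the fast fibre genes 11 of 20.

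Between the PBS groups, 8 of the 33 differentiation genes and 3 of the 22 fusion genes were lower at day 8 and none higher, against 1.15% of all genes lower and 1.19% higher. Chrng (-2.32 ± 0.22, SE, adjusted p = 2.6e-05) and Tnnt2, the cardiac troponin T of immature fibres (-1.88 ± 0.27, SE, adjusted p = 0.00125), led the differentiation genes, and Ncam1 (-1.44 ± 0.18, SE, adjusted p = 0.000388) the fusion genes. Mymx differed by -0.64 ± 0.17 (SE, adjusted p = 0.0668). Of the 22 bHLH partners Snai2 was lower (-0.65 ± 0.12, SE, adjusted p = 0.0098), a call lost without PBS day 4 replicate 2. Of the satellite cell and Notch genes 3 of 26 were lower, Itga7, Fgfr4 and Megf10, and none of the 18 cofactors passed; without PBS day 8 replicate 2 or 3, 1 of the 26 was called. With AREG, Chrng (-1.19 ± 0.22, SE, adjusted p = 0.0136) and Ncam1 (-1.03 ± 0.18, SE, adjusted p = 0.0104) were lower at day 8, and no other gene of these lists passed. Ncam1 was lost as a call without AREG day 4 replicate 2, and the 1 differentiation gene became 0 without AREG day 4 replicate 1, AREG day 4 replicate 2 or AREG day 8 replicate 2, 4 without AREG day 8 replicate 1 and 3 with the replicate block.

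Genes of other cell types, of dividing cells and of mature fibres moved beside the 9. Myoblasts divide too, so the list for dividing cells does not mark other cells alone. In RNA from whole muscle, fewer cells of a type and less RNA per cell cannot be told apart. With AREG at day 4, 6 of 13 macrophage markers fell, against 2.11% of all genes lower and 0.79% higher. Among them were Lgals3, Msr1 and Cd68 (-1.59, -1.23 and -1.42). The log2 of the summed intensity of the 13 markers was 12.32 to 12.67, against 13.35 to 13.78 with PBS. Of 11 genes of dividing cells 6 fell, with Plk1, Rrm2 and Bub1 (-0.90, -1.04 and -1.08) having the smallest p, and their sums were 10.49 to 10.75, against 11.26 to 11.59. Of 20 genes of mature fast fibres, Tcap rose (0.63 ± 0.13, SE, adjusted p = 0.0294) and none fell. All 20 had differences above 0, whereas 40.9% of all genes lay below 0. Their sums were 17.38 to 17.51 with AREG, against 17.19 to 17.36 with PBS. Of 7 smooth muscle and pericyte markers Acta2 fell (-0.87 ± 0.17, SE, adjusted p = 0.0242), but only 3 lay below 0 (median 0.01). Rgs5 (0.51) and Kcnj8 (0.53) had AREG arrays wholly above the PBS arrays and did not pass. None of 9 markers of fibro-adipogenic progenitors, 8 of endothelium, 4 of Schwann cells and 6 of T cells passed. Of the fibro-adipogenic markers 8 lay below 0 (median -0.375), with sums of 13.82 to 14.07, against 14.23 to 14.44 with PBS. Below 0 lay 1 of 8 endothelial (median 0.30), 1 of 4 Schwann cell (0.22) and 4 of 6 T cell markers (-0.08). The counts of passing genes that were above 0 became 0 here too without AREG day 4 replicate 1, AREG day 4 replicate 3 or PBS day 4 replicate 2. The macrophage count was 11 without AREG day 8 replicate 1 or 3 and from the 6 arrays of day 4 alone, and 3 without PBS day 4 replicate 3. The fast fibre count was 5 with repeated quantile normalisation and 2 with the replicate block, and the fibro-adipogenic count was 3 without AREG day 8 replicate 3 or from the 6 arrays alone. None of these lists held a gene that passed between AREG and PBS at day 8, where 1 of all 19752 genes did (0.00506%). There 12 of 13 macrophage (median -0.47), 11 of 11 dividing cell (-0.23) and 9 of 9 fibro-adipogenic genes (-0.40) lay below 0. Their summed levels overlapped between AREG and PBS. Of all genes 48.8% lay below 0, of endothelial markers 5 of 8, and of smooth muscle and pericyte markers 2 of 7. The part of these shifts in the values of the 9 genes was not tested.

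Between the PBS groups, 4 of 6 T cell markers were higher at day 8, against 1.19% of all genes higher and 1.15% lower. Cd3g led them (2.55 ± 0.32, SE, adjusted p = 0.000388). Most of this list was dim: by mean over the 12 arrays, 1 of the 6 markers lay at or above the level of the median gene. The summed log2 levels of the 6 markers were 9.96 to 10.77 at day 8, against 8.96 to 9.04 at day 4. None of the 13 macrophage markers passed there, with sums of 13.28 to 13.79 at day 8, against 13.35 to 13.78 at day 4. Of the 11 genes of dividing cells, Plk1 was lower (-0.76 ± 0.15, SE, adjusted p = 0.0127). The count of 1 became 0 without PBS day 4 replicate 2, PBS day 8 replicate 1 or PBS day 8 replicate 2, 2 without AREG day 8 replicate 1, and 4 without AREG day 8 replicate 3 or from the 6 PBS arrays alone. Their sums were 10.88 to 11.11 at day 8, against 11.26 to 11.59 at day 4. Of the 20 genes of mature fast fibres Myh2, a fast myosin heavy chain, was higher (0.56 ± 0.12, SE, adjusted p = 0.0197) and none lower. That call was lost without PBS day 4 replicate 1 or 2, or any 1 PBS array of day 8, and 3 of the 20 differences lay below 0. The sums of these genes overlapped, at 17.34 to 17.40 at day 8 and 17.19 to 17.36 at day 4. Of the 7 smooth muscle and pericyte markers Acta2 was lower (-1.51 ± 0.17, SE, adjusted p = 0.000194), but only 3 lay below 0 (median 0.05). With AREG, 2 of the 6 T cell markers were higher at day 8, against 0.527% of all genes (0 to 4 markers when 1 array was left out). The macrophage sums with AREG spread from 12.14 to 13.52 at day 8, against 12.32 to 12.67 at day 4. The part of the T cell and cell division shifts in the lower Mymk, Myog and Cdh15 was not tested.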

How the data were processed

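Total RNA of whole TA muscle was measured on 12 arrays. The authors made 1 value per cluster with RMA in Affymetrix Power Tools, per the submitters' processing notes. Versions and the genome build were not given in the sources used here. Values were deposited as intensities on a linear scale from 4.65 to 21512.5, for 24922 clusters. RMA scales arrays to be alike, though the spread of the deposited values still differed between them. It can compress differences of dim genes.

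Intensities were taken to log2 without pseudocount or filter. The array's gene table gives 1 symbol for 21425 clusters, several for 1399 and no entry for 2098; 21347 matched a RefSeq table of GRCm38.p6 by Entrez number. Of 921 genes with several clusters the brightest was kept, which left 19752. limma 3.58.1 in R 4.3.3 (lmFit, eBayes) was fitted with 4 group means over 12 arrays, two-sided, with Benjamini-Hochberg adjustment over all genes and calls under 0.05; it was checked on simulated data. An exact test of 3 against 3 arrays cannot go below p = 0.1 and was not used.

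The 9 genes and all lists were chosen with earlier results of these data known. Named were the 9 genes, the 3 most correlated genes of each (predicted, Rik, olfactory receptor and ribosomal genes left out), up to 4 genes of each pathway list and 3 of each marker list by smallest p, and Foxp3. Mymx at day 4 was named after values had been seen.

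No label pairs AREG with PBS arrays. For day 4, deviations of same-numbered arrays had Pearson's r of 0.558, 0.201 and 0.511, and a block for the replicate number was therefore tried as an alternative. For day 8 r was -0.198, 0.123 and -0.003. The reported tests hold no such block and ignore any pairing. The value 0.558 joins the replicate 1 arrays of day 4, which also had the narrowest log2 interquartile ranges (2.19 with AREG, 2.37 with PBS). Whether pairing or shared array quality gave it was not tested. Alternatives were other scalings, a pseudocount of 32, a level filter, the mean of a gene's clusters, eBayes options, array weights, the 6 arrays of a comparison, the replicate block and leaving out each array.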

Additional observations from a re-analysis of the deposited data

How the results depend on the processing

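For the 9 genes in 5 comparisons, 860 of 921 alternative values kept direction and side of the threshold, 29 passed where the reported one had not, 6 no longer passed and 26 changed sign, none of them a called value. No scaling moved the median of all genes by 0.1. The 6 lost calls were Myog and Mymk at day 4 without AREG day 4 replicate 1 or 3, or PBS day 4 replicate 2. With 3 arrays per group, the precision is limited by their number, and the cause of each change below was not tested.

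Genes called at day 4 numbered 573 (156 higher and 417 lower). They became 877 with repeated quantile normalisation (363 higher, 514 lower), 358 with a pseudocount of 32, 938 from the 6 arrays alone, 914 with the replicate block and 5305 with array weights (2785 higher, 2520 lower), and 9 to 1336 when 1 array was left out. Array weights called 7 of the 9 genes there, and leaving out 1 array 0 to 4. At day 8 the 1 called gene became 0 in all other settings that kept the 12 arrays and from the 6 arrays alone, the replicate block included, except 1192 genes and 2 of the 9 with array weights; leaving out 1 array gave 0 to 1. For the difference of the effects array weights called 2232 genes and 3 of the 9 (Myog, Mymk and Cdh15), against 0. Between the PBS groups array weights called 1649 genes and 7 of the 9, the 6 arrays alone 759 genes, and leaving out 1 array 209 to 719 genes and 3 to 5 of the 9, against 463 and 3. Between the AREG groups a pseudocount gave 91 genes, the 6 arrays alone 86, array weights 6676 genes and 3 of the 9, and leaving out 1 array 79 to 458, against 142 and 1. At day 4 the weights also raised the list calls, to 21 of 33 for differentiation (15 lower), 10 of 22 for fusion (8 lower), 15 of 26 for satellite cells and Notch (11 lower), 11 of 22 for bHLH partners (7 lower), 8 of 18 for cofactors (1 lower), 14 of 20 for fast fibres (0 lower) and 12 of 13 for macrophages (all lower). The weights ran from 0.167 (AREG day 4 replicate 1) to 7.43 (AREG day 8 replicate 2). Apart from Cdh15 at day 4, the replicate block changed no call of the 9 genes.

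Sign changes were confined to Myf6, Myod1 and Pax3, none of them called. Myf6 at day 4 gave 0.018 with quantile normalisation, 0.071 with array weights and -0.14 to 0.047 leaving out 1 array; at day 8 0.025 with arrays centred on medians and -0.15 to 0.065 leaving out 1 array. Its difference of effects gave -0.019 with quantile normalisation, -0.25 with array weights and -0.093 to 0.12 leaving out 1 array; between PBS groups it spanned -0.018 to 0.17 leaving out 1 array, and between AREG groups it gave -0.093 with array weights and -0.027 to 0.19. Myod1 at day 8 gave -0.19 with array weights and -0.14 to 0.38 leaving out 1 array; between AREG groups -0.17 and -0.27 to 0.24. Pax3 between AREG groups gave 0.038 with quantile normalisation, 0.0095 with centred arrays, 0.11 with array weights and -0.085 to 0.034 leaving out 1 array.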
